A study of Mus musculus with 2 samples.

Results

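Car9-negative collagen-expressing cells without Ptprc were examined in tumours grown from AB1-HA, a mesothelioma line of the mouse. A cell was included when it held at least 10 UMIs (counts of captured transcripts by their molecular barcodes) summed over the fibrillar collagen genes Col1a1, Col1a2 and Col3a1, and 0 UMIs of Ptprc, the gene for CD45, and of Car9, a carbonic anhydrase gene of the hypoxia response. It also had to hold at least 300 genes and 5000 UMIs, with at most 10% of UMIs from mitochondrial genes. This rule found 203 of 6736 filtered cells in the anti-VEGF library and 237 of 7385 in the control library, 440 of 14121 in all. The cells were chosen by their collagen, Ptprc and Car9 counts, so the levels of these genes, and differences from cells that failed the rule, are given as description.

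The 2 groups were mice given an antibody against VEGF, the vascular growth factor, and mice that received a control antibody. Each was 1 library, prepared with the 10x Genomics 3-prime v3.1 chemistry from live tumour cells sorted for CD45 staining. The labels give neither the number of mice nor the antibody dose, time or clone, and mouse age, sex and strain are likewise not stated there. With 1 library per group there was no replicate and no test. Every difference below describes these libraries, and every interval is an exact 95% interval that covers counting error only.

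Mesothelial cells line the body cavities and combine keratins and epithelial surface proteins with the capacity to make matrix. Mesotheliomas arise from them, and in sarcomatoid forms the tumour cells lose the epithelial programme and make collagen, so collagen does not by itself separate tumour cells from the fibroblasts of the stroma. Fibroblasts are recognised by small proteoglycans such as decorin and lumican, and deletion of Cdkn2a together with its neighbour Mtap is a frequent lesion of mesothelioma.

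The Car9-negative collagen cells were deep and almost equally common among the filtered cells of both libraries. They made up 3.01% (interval 2.62 to 3.45) of filtered anti-VEGF cells and 3.21% (2.82 to 3.64) of filtered control cells, and the intervals overlap. All shares here are of cells sorted for CD45 staining, so they do not give abundance in the tumours. Cells that met the same collagen and Ptprc limits but held Car9 were instead 4.99% (4.48 to 5.54, 336 cells) of the anti-VEGF library and 1.503% (1.24 to 1.81, 111 cells) of the control library. Median depth of the Car9-negative cells was 40497 UMIs in the anti-VEGF library and 44459 in the control library, with median collagen sums of 99 and 91 UMIs. Just inside the collagen limit, at 10 to 12 UMIs, lay 5 anti-VEGF and 8 control cells. Just outside, at 7 to 9 collagen UMIs, lay 6 anti-VEGF and 16 control cells, and 1 Ptprc UMI kept out 11 anti-VEGF and 20 control cells. A Car9 count of exactly 1 kept out 42 anti-VEGF and 39 control cells. In barcodes below the depth limit, of 500 to under 5000 UMIs, 11 of 1423 anti-VEGF (0.773%, 0.386 to 1.38) and 19 of 3420 control barcodes (0.556%, 0.335 to 0.866) passed the other limits. The libraries share 35 barcode sequences, of which 1 belongs to an anti-VEGF member and 0 to control members, and a cell is counted within its own library.

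Since the sort was for CD45, the levels of leukocyte genes were set beside those of the cells that held Ptprc and fewer than 10 collagen UMIs (5394 anti-VEGF and 6311 control cells, median depth 25350.5 and 25986 UMIs). Levels are given as CPM, the UMIs of a gene per 1000000 UMIs summed over the cells. The sum of 9 macrophage genes, led by Lyz2, the lysozyme gene, and the complement gene C1qa, was 444 CPM (430 to 458) in anti-VEGF members and 310 CPM (299 to 320) in control members. These sums are 2.20% and 1.54% of those in the Ptprc-positive cells of the same library. Few cells carried much of it, since 15 anti-VEGF and 22 control members held 20 or more of these UMIs, with maxima of 1038 and 520. The sum of 10 general leukocyte genes was 334 CPM in anti-VEGF and 295 CPM in control members, 4.58% and 4.13% of that in Ptprc-positive cells, and 9 of the 10 genes were below 50 CPM in both. T and NK cell, neutrophil, epithelial, muscle and Schwann cell lists were each below 5 CPM in sum in both libraries. The mural cell list summed to 16.6 CPM in anti-VEGF and 4.41 CPM in control members, and the endothelial list to 10.9 and 2.94 CPM.

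The genes given as marks of these cells were present in nearly every one of them. Tm4sf1, a tetraspanin-like surface protein, was at 1088 CPM in anti-VEGF and 789 CPM in control members, against 11.4 and 3.52 CPM in Ptprc-positive cells. Dkk2, a secreted Wnt antagonist, was at 345 CPM in anti-VEGF and 464 CPM in control members, against 3.55 and 2.30 CPM in Ptprc-positive cells. Cd34, a sialomucin of progenitor, endothelial and some stromal cells, was at 406 CPM and 408 CPM, against 2.86 and 2.03 CPM. After every cell was thinned to 5000 UMIs, Dkk2 was detected in 69.0% of anti-VEGF and 72.2% of control members and in 1.26% and 1.38% of Ptprc-positive cells, where unthinned shares were 91.6% and 89.9% in members and 4.99% and 4.82% in Ptprc-positive cells. Both libraries therefore held the pattern, and Dkk2 ran lower in the anti-VEGF library by a factor of 0.74 (0.71 to 0.78), within the 1.5-fold limit used below.

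Of the mesothelial markers, Msln stood apart. Msln, the gene of the mesothelin surface protein, was at 137 CPM in anti-VEGF and 137 CPM in control members, against 1.16 and 0.68 CPM in Ptprc-positive cells, and a UMI was found in 80.3% and 84.4% of members. Pdpn, the podoplanin gene, which fibroblasts, lymphatic endothelium and some macrophages also use, was at 56.3 and 58.8 CPM in members, against 161 and 95.7 CPM in Ptprc-positive cells. Of the 19 on the list, 10 had 0 UMIs in anti-VEGF and 9 in control members. The absent genes included Upk3b, a uroplakin, with 0 UMIs in both libraries. Wt1, the transcription factor of mesothelium, was at 1.25 CPM in anti-VEGF and 0.28 CPM in control members. Krt19 was at 1.37 and 0.55 CPM and Krt18 at 0.11 and 1.19 CPM. Krt8 was at 173 CPM in anti-VEGF and 109 CPM in control members, but was held by 20.2% and 19.0% of cells, and the 10% of cells with most of it held 95.4% and 94.6% of its UMIs. Since Msln and Pdpn were the listed genes held by at least 25% of cells, the cells are not called mesothelial here.

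Of 14 fibroblast markers, 7 reached 10 CPM in anti-VEGF and 6 in control members, and 4 in each library were held by at least 25% of cells. Mfap5, a microfibril protein, was at 200 CPM in anti-VEGF and 96.2 CPM in control members and was held by 75.4% and 61.6% of them. Dcn was at 325 and 167 CPM, but was held by 33.99% and 27.4%, and the 10% of cells with most of it held 88.8% and 89.1% of its UMIs. Lum was at 121 and 51.1 CPM, held by 12.3% and 11.4%. Pdgfra, a growth factor receptor of fibroblasts, was at 32.5 and 23.3 CPM. Within members that held 3 or more UMIs over Dkk2 and Msln, Pdgfrb, also listed, was at 22.3 CPM in anti-VEGF and 18.5 CPM in control cells. In the anti-VEGF cells of that kind, 43.9% held Pdgfrb and 38.9% held Pdgfra. The listed genes Fap (1.68 and 1.14 CPM) and Col15a1 (0.12 and 0.19 CPM) were near 0 in such cells. Mfap5 was thus widespread, while Dcn and Lum marked a minority.

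Mesenchymal regulators were widespread. Prrx1, a mesenchymal homeobox factor, was at 165 CPM in anti-VEGF and 152 CPM in control members, against 0.89 and 0.53 CPM in Ptprc-positive cells. Twist1, a factor of epithelial to mesenchymal transition, was at 181 and 188 CPM, against 6.59 and 2.27 CPM. Runx2, a factor of bone and cartilage development, was at 48.3 and 49.6 CPM with a UMI in 74.4% and 68.8% of members. Sox9, listed with it, had 177 UMIs in anti-VEGF and 431 UMIs in control members (log2 ratio -0.94). The 10% of cells with most Sox9 held 68.4% and 69.1% of its UMIs. Of 8 listed bone and cartilage genes, Runx2 and Sox9 were the 2 that reached 10 CPM in each library. The bone genes Sp7 (0 CPM in both) and Alpl (0.34 and 0.28 CPM) were at or near 0. Vim, the intermediate filament vimentin, was in every member. Cdh1, the epithelial cadherin, was at 0 CPM in anti-VEGF and 0.55 CPM in control members.

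Of the 15 genes with the highest ratio of members over Ptprc-positive cells in both libraries, most encode matrix proteins or their handling. They are Mgp, Efemp1, Pcolce, Col6a1, Serpinh1, Col5a2, Bgn, Ogn, Cyr61, Dcn, Fstl1 and Aspn, with Cd34, Lgals7 and Rhox5 beside them. Rhox5, an X-linked homeobox gene active mainly in reproductive tissue and in many tumour lines, was at 620 CPM (604 to 637) in anti-VEGF and 634 CPM (619 to 649) in control members, against 5.30 and 3.68 CPM. Mgp, a calcification inhibitor, was at 685 CPM in anti-VEGF and 833 CPM in control members, against 2.11 and 3.14 CPM. Lgals7, a galectin of stratified epithelium, was at 581 and 359 CPM, against 5.47 and 2.95 CPM. The plot of marker levels shows the same separation in both libraries.

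**Figure D1:**
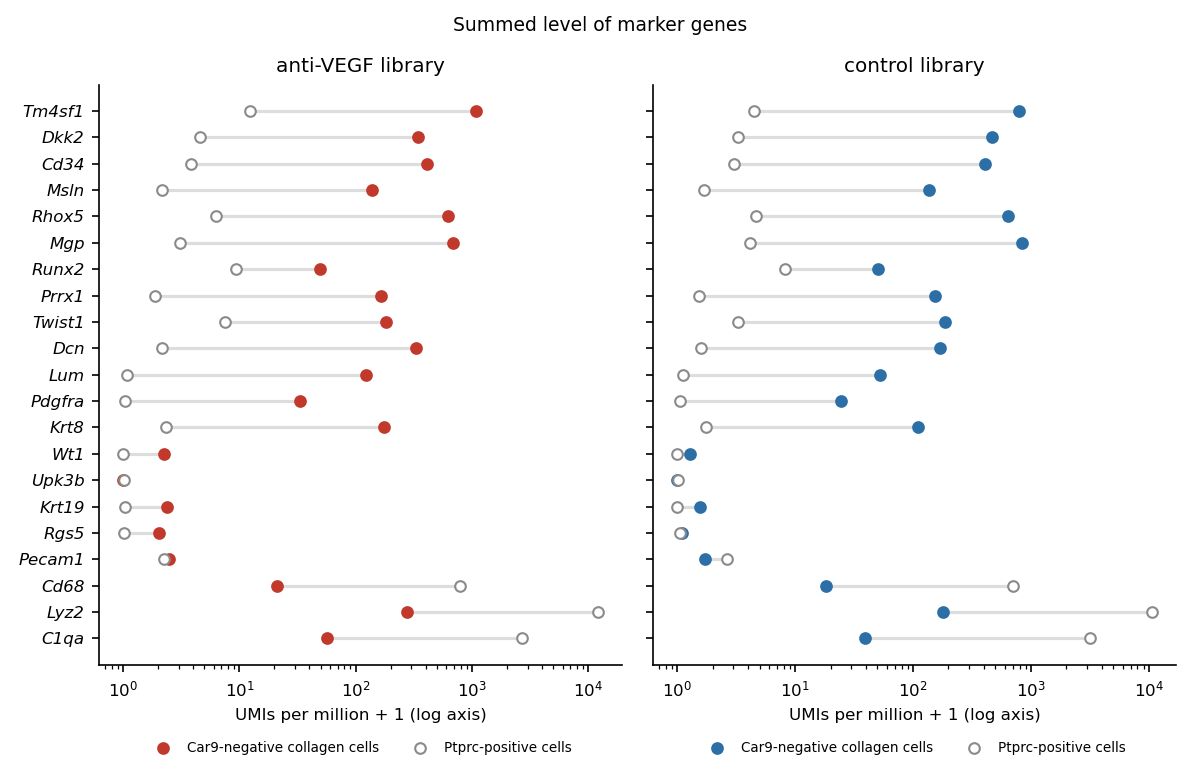
Summed level of 21 marker genes in CPM plus 1 (log axis), anti-VEGF library on the left and control library on the right. Filled points are Car9-negative collagen cells and open points are Ptprc-positive cells. Tm4sf1, Dkk2, Cd34, Msln and Rhox5 stand to the right in members of both libraries, Wt1, Upk3b and Krt19 stay near the left edge, and Lyz2, C1qa and Cd68 stand to the right in Ptprc-positive cells.

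Genes of the Y chromosome and of the Cdkn2a interval, which the rule did not use, were low in nearly all members. The sum of the Y-linked genes Ddx3y, Eif2s3y, Kdm5d and Uty was 5.24 CPM (3.84 to 6.99, 46 UMIs in 16 of 203 cells) in anti-VEGF members and 1.74 CPM (1.05 to 2.72, 19 UMIs in 14 of 237 cells) in control members. In Ptprc-positive cells it was 108 CPM in the anti-VEGF library and 101 CPM in the control library, with a UMI in 86.9% and 84.2% of these shallower cells. Mtap, a methionine salvage enzyme, was at 1.14 and 0.73 CPM in members, against 29.7 and 35.9 CPM in Ptprc-positive cells. Cdkn2a, which encodes the cell cycle inhibitors p16 and p19Arf, had 0 UMIs in anti-VEGF members, which allows up to 3 UMIs or 0.342 CPM, and 5 UMIs (0.46 CPM) in control members, against 14.5 and 8.23 CPM. Its neighbour Cdkn2b, another such inhibitor, was at 0.68 CPM in anti-VEGF members and had 0 UMIs in control members, against 7.55 and 4.24 CPM.

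Over the surrounding stretch of chromosome 4, 24 genes were examined, and the 3 adjoining genes were at 10% or less of the Ptprc-positive level in members of both libraries. Hacd4, a fatty acid elongation enzyme gene, and Plin2, of lipid droplets, were also lower in members, at 11.7 and 15.9 CPM against 83.7 and 93.2 CPM for Hacd4 and at 87.2 and 88.6 CPM against 314 and 298 CPM for Plin2. In GENCODE M21 on GRCm38, the build that matches the submitters' mm10, Mtap lies at chr4:89137122-89181081 on the plus strand, Cdkn2a at chr4:89274471-89294653 and Cdkn2b at chr4:89306299-89311039, both on the minus strand. The nearest such gene on the lower side, Klhl9 (chr4:88718292-88722465, minus strand), a ubiquitin ligase adaptor, was at 33.4 CPM in anti-VEGF and 32.9 CPM in control members, against 30.9 and 34.2 CPM in Ptprc-positive cells. The nearest on the upper side, Dmrta1 (chr4:89679436-89694772, plus strand), was at 3.08 and 3.21 CPM in members, against 0.02 and 0.05 CPM, and Tusc1 further on (chr4:93334138-93335511, minus strand) was at 52.7 and 55.7 CPM, against 20.4 and 22.4 CPM. RNA counts do not show whether DNA is missing, and no DNA was measured.

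**Figure D2:**
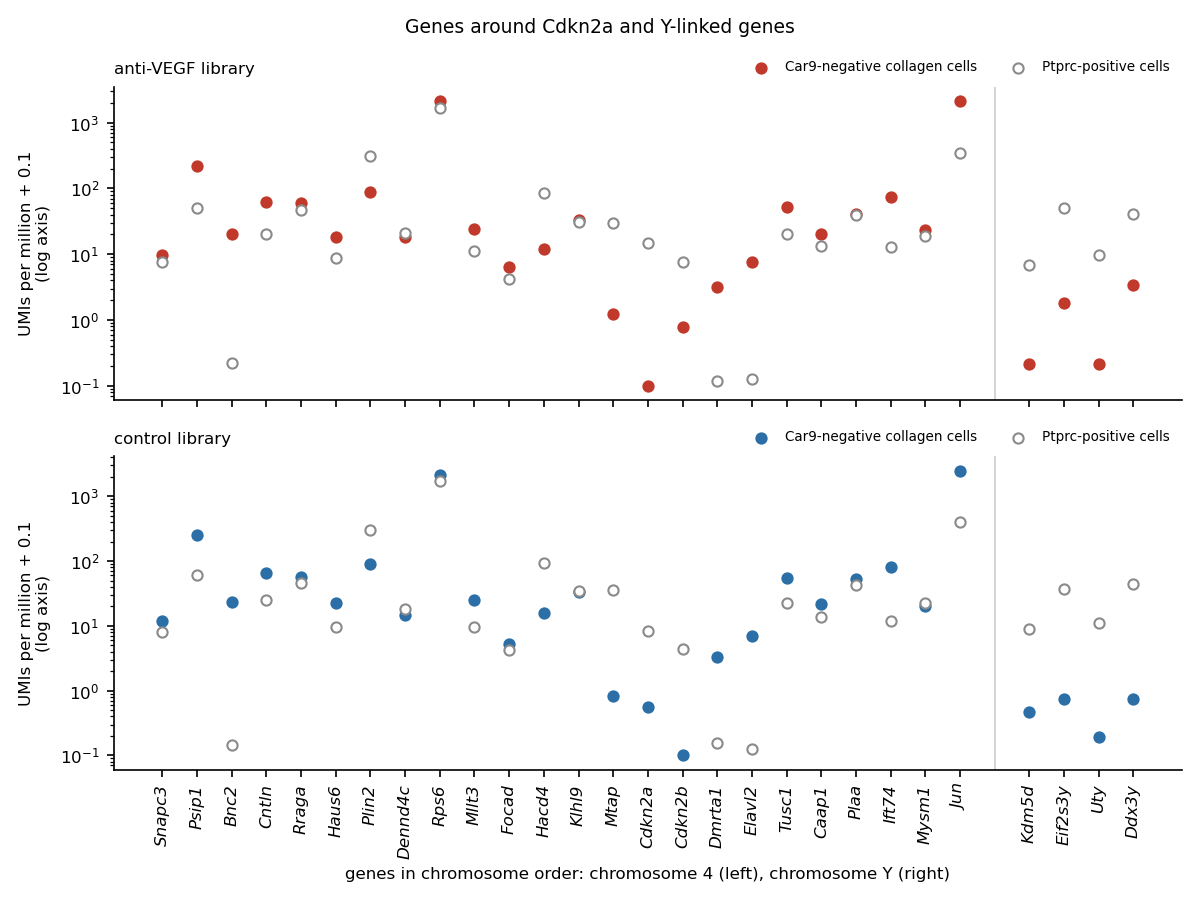
Level in CPM plus 0.1 (log axis) of 24 genes around Cdkn2a in chromosome order, with 4 Y-linked genes at the right, anti-VEGF library above and control library below. Filled points are Car9-negative collagen cells and open points are Ptprc-positive cells. Mtap, Cdkn2a, Cdkn2b and the Y-linked genes are low in members, with Hacd4 and Plin2 lower to a smaller degree, while Klhl9 and Tusc1 on either side are not.

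The members were not uniform, and the Y-linked UMIs were not spread evenly over them. A split by Dkk2 plus Msln, at 3 UMIs, and by the fibroblast genes Dcn, Lum and Dpt, at a sum of 20 UMIs, was chosen after these values were seen. Most members, 180 anti-VEGF and 212 control cells, held 3 or more UMIs over Dkk2 and Msln together, and are called the Dkk2/Msln cells. Of them, 178 anti-VEGF and 203 control cells held Dkk2, and 154 and 186 held Msln. In them the Y-linked sum was 2.28 CPM (1.37 to 3.56) in the anti-VEGF and 1.61 CPM (0.94 to 2.58) in the control library, 2.12% and 1.60% of the level in Ptprc-positive cells. The macrophage sum in the same cells was 2.22% and 1.53% of that level, and the sum of Mtap, Cdkn2a and Cdkn2b 2.09% and 2.35%. Wt1 had 0 UMIs in both libraries of these cells.

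A few cells had the opposite pattern, with at most 2 UMIs of Dkk2 and Msln and 20 or more of Dcn, Lum and Dpt. There were 9 in the anti-VEGF library and 3 in the control library, so these are counts of very few cells. In the 9 anti-VEGF cells the Y-linked sum was 105 CPM (68.5 to 154, 26 UMIs in 6 cells), 97.5% of the Ptprc-positive level, while the macrophage sum was 2.32% of its own Ptprc-positive level. The 3 control cells held 2 Y-linked UMIs in 1 cell (28.1 CPM, 3.40 to 101). Mtap, Cdkn2a and Cdkn2b together gave 4 UMIs in 1 of the 9 anti-VEGF cells and 1 UMI in 1 of the 3 control cells. Wt1 was held by 5 of the 9 anti-VEGF cells (44.4 CPM) and 1 of the 3 control cells (42.1 CPM), which are all the members that held it. Thy1, a surface glycoprotein of fibroblasts and lymphocytes, was at 343 CPM in the 9 anti-VEGF and 56.1 CPM in the 3 control cells. In the Dkk2/Msln cells it had 0 UMIs in the anti-VEGF library and 0.85 CPM in the control library. Rhox5 was at 36.3 CPM in the 9 anti-VEGF cells, held by 2 of them, and at 884 CPM in the 3 control cells, held by 2. Col1a1 in the 9 anti-VEGF cells had a lowest value of 3, a median of 204 and a highest value of 888 UMIs per cell, and the 3 control cells held 16, 38 and 371.

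Fibroblast proteoglycans were not restricted to those few cells. Another 23 anti-VEGF and 23 control members held both 3 or more UMIs over Dkk2 and Msln and 20 or more of Dcn, Lum and Dpt. Dcn, the decorin gene, was at 2807 CPM in these anti-VEGF and 2000 CPM in these control cells, and Rhox5 was found in 23 of 23 and 22 of 23 of them. Their Y-linked UMIs numbered 1 in the anti-VEGF and 6 in the control library, and Mtap, Cdkn2a and Cdkn2b had 0 UMIs in both. A remainder of 14 anti-VEGF and 22 control cells fell below both limits, had median depths of 11470 and 10731 UMIs, and carried Rhox5 at 489 and 644 CPM. So Dcn alone did not separate the Y-positive cells. Of the cells with 2 or more Y-linked UMIs, 6 of 10 in the anti-VEGF library and 1 of 4 in the control library held at most 2 UMIs of Dkk2 and Msln and were Dcn-rich, and the others held 3 or more UMIs over Dkk2 and Msln.

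**Figure D3:**
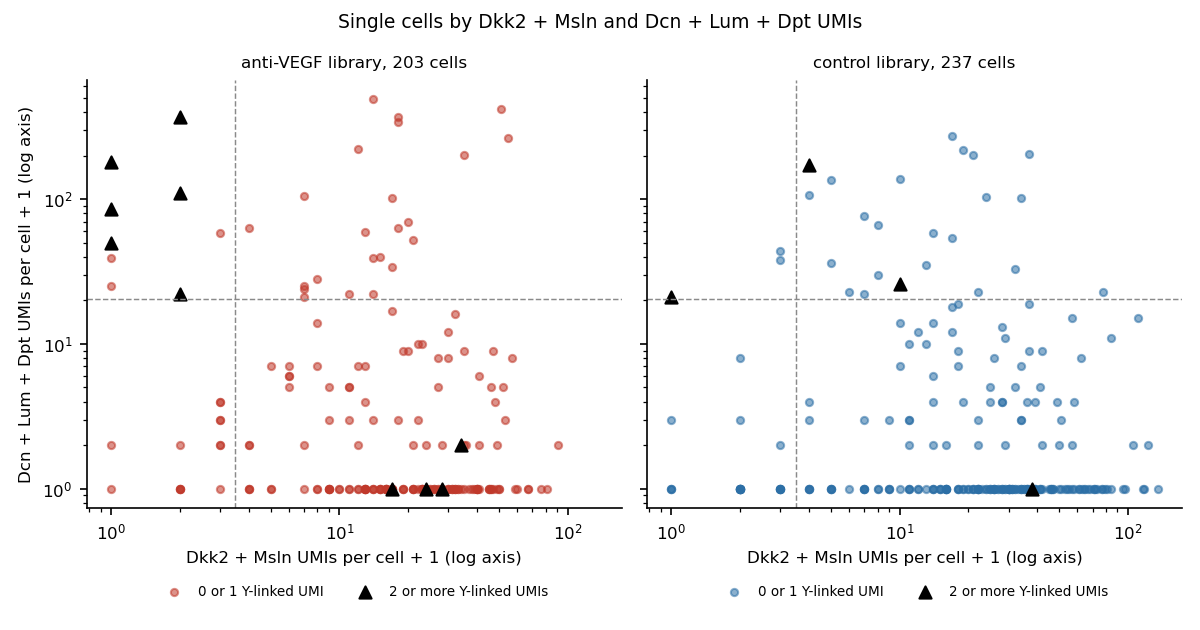
Each point is 1 Car9-negative collagen cell, by its Dkk2 plus Msln UMIs and its Dcn, Lum and Dpt UMIs, each plus 1 on log axes, with 203 anti-VEGF cells on the left and 237 control cells on the right. Dashed lines mark 3 and 20 UMIs. Black triangles are cells with 2 or more Y-linked UMIs, of which 6 of 10 in the anti-VEGF library and 1 of 4 in the control library lie at the upper left.

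Between the libraries, 9222 genes had at least 100 UMIs over all members and were compared as the log2 ratio of anti-VEGF over control CPM, each plus 1. The median ratio was -0.03, with the 5th and 95th percentiles at -0.39 and 0.41. Of these genes, 245 (2.66%) were at least 1.5-fold higher and 113 (1.23%) at least 1.5-fold lower in anti-VEGF members, and 44.2% had a log2 ratio above 0. Those shares are the background for the lists that follow. Most genes thus lay close together in the 2 libraries, and no count is a number of genes shown to respond.

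Where a gene reached 50 CPM in either library and was held by 10% or more of its members, the 4 highest ratios belonged to Cxcl5, Igfbp7, Rarres2 and Serping1. Cxcl5, a neutrophil-attracting chemokine, was at 92.6 CPM (86.3 to 99.2) in anti-VEGF and 7.34 CPM (5.82 to 9.14) in control members, 12.6-fold higher (10.0 to 16.1). Igfbp7, a matrix-bound growth factor binding protein, was at 77.5 and 9.54 CPM, Rarres2, the precursor of the attractant chemerin, at 132 and 22.6 CPM, and Serping1, the complement C1 inhibitor, at 62.1 and 10.9 CPM. These values rested on few cells. The 10% of anti-VEGF members with most UMIs of each gene held 97.2% of Cxcl5 UMIs, 98.5% of Igfbp7, 83.6% of Rarres2 and 86.4% of Serping1. The 9 Dcn-rich anti-VEGF cells with at most 2 UMIs of Dkk2 and Msln stood high. They had 879 CPM of Cxcl5, 1601 CPM of Igfbp7, 2855 CPM of Rarres2 and 1561 CPM of Serping1.

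Within the 180 anti-VEGF and 212 control Dkk2/Msln cells, 168 of 9108 genes (1.84%) were at least 1.5-fold higher, 109 (1.2%) at least 1.5-fold lower, and 44.4% above 0. There the log2 ratio of Cxcl5 was 2.41 (43.0 CPM in anti-VEGF and 7.30 CPM in control cells), against 3.49 over all members. The Cxcl5 value still rested on few cells, as 18.3% of anti-VEGF and 8.96% of control Dkk2/Msln cells held a UMI of it. A single anti-VEGF cell of this kind held more Cxcl5 UMIs than all the control Dkk2/Msln cells together. The log2 ratio of Igfbp7 was 1.63 within the Dkk2/Msln cells against 2.90 over all members, that of Rarres2 1.33 against 2.50, and that of Serping1 0.85 against 2.40. Other genes kept their ratio more nearly. Il33, an alarmin cytokine, was at 34.8 and 11.8 CPM (log2 ratio 1.49, against 1.95 over all members). A UMI of Il33 was found in 14.3% of anti-VEGF and 5.06% of control members after thinning. Its UMIs were also concentrated, as the 10% of members with most of them held 71.1% in the anti-VEGF and 89.7% in the control library. Ly6a, the stem cell antigen Sca-1, was at 171 and 69.1 CPM (1.29, against 1.64), and Ly6c1, a relative of it, at 54.2 and 23.5 CPM (1.17, against 1.77). Cp, the copper-binding ferroxidase ceruloplasmin, was at 259 and 99.7 CPM (1.37, against 1.41), and the histone gene Hist1h2bc at 70.0 and 22.1 CPM (1.62, against 1.51).

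For 2 monocyte attractants the ratio did not carry over to the Dkk2/Msln cells. Ccl2 was at 210 CPM in anti-VEGF and 87.0 CPM in control members (log2 ratio 1.26), but at 35.3 CPM and 63.7 CPM in the Dkk2/Msln cells (-0.83), and 1 anti-VEGF cell held 31.7% of its UMIs over all members. Ccl7 was at 71.3 and 27.0 CPM over all members (1.37) and at 14.3 and 14.0 CPM in the Dkk2/Msln cells (0.02). In Ptprc-positive cells Ccl2 was at 1150 CPM in the anti-VEGF and 1017 CPM in the control library, and the part of macrophage RNA in the members' values was not tested.

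Of the 10 genes with the lowest ratios by the same limits, all but Crabp1 had nearly the same ratio in the Dkk2/Msln cells. Dusp5, a phosphatase that acts on ERK, was at 44.0 CPM (39.7 to 48.6) in anti-VEGF and 94.0 CPM (88.3 to 99.9) in control members, a log2 ratio of -1.08. Ankrd1, a target of YAP signalling, was at 43.2 and 91.4 CPM (-1.06), and Hbegf, a ligand of the EGF receptor, at 139 and 257 CPM (-0.88). Fosl1, an AP-1 subunit, was at 76.0 and 134 CPM (-0.81), and Pthlh, the parathyroid hormone-related hormone, at 53.1 and 87.1 CPM (-0.70). Crabp1, a retinoic acid binding protein, was at 51.9 and 93.4 CPM (-0.83), and Bag3, a co-chaperone, and the mitotic genes Cenpw and Tacc3 had ratios of -0.72, -0.74 and -0.70. Within the Dkk2/Msln cells the ratios were -1.18 for Dusp5, -1.02 for Ankrd1, -0.85 for Hbegf, -0.88 for Fosl1 and -0.54 for Crabp1.

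Apoe, a lipid carrier abundant in macrophages, was at 33.4 CPM in anti-VEGF and 66.3 CPM in control members (log2 ratio -0.97). In Ptprc-positive cells of the same libraries it was at 2306 and 3934 CPM, so it was also lower there, and the part of free macrophage RNA in the members' values was not tested.

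**Figure D4:**
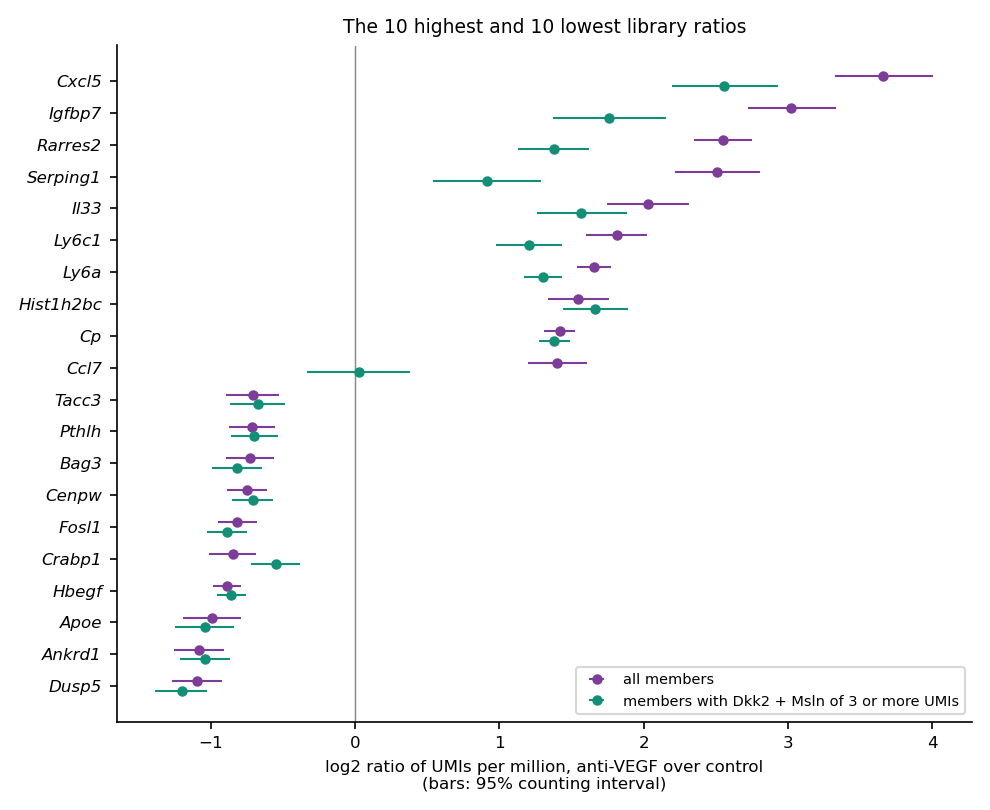
Log2 ratio of CPM, anti-VEGF over control and with nothing added to the CPM, for the 10 highest and 10 lowest genes, with 95% counting intervals. Purple points are all members and green points the members with 3 or more UMIs over Dkk2 and Msln. The purple point lies well to the right of the green one for Cxcl5, Igfbp7, Rarres2, Serping1 and Ccl7, while the points of the low genes lie close together except for Crabp1.

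The hypoxia list ran higher in anti-VEGF members, in which no Car9 UMI was detected. A cell that uses Car9 can lack a detected UMI of it, and many excluded cells held exactly 1. Of collagen cells without Ptprc, 62.3% held Car9 in the anti-VEGF and 31.9% in the control library. The share of members with undetected Car9 was not tested. Of 23 listed genes, 20 were measured, 18 had a ratio above 0 (against 44.2% of all genes), 6 were at least 1.5-fold higher (against 2.66%) and 0 at least 1.5-fold lower, with a median log2 ratio of 0.37. Ero1l, an oxidase of the endoplasmic reticulum, was at 131 CPM in anti-VEGF and 62.9 CPM in control members, 2.08-fold higher (1.89 to 2.29). Ndrg1, a stress-response gene, was at 142 and 83.1 CPM, Bnip3, a mitophagy receptor, at 196 and 122 CPM, Ankrd37 at 39.6 and 21.3 CPM, and Egln3, an oxygen-sensing prolyl hydroxylase, at 25.3 and 14.8 CPM. Adm, the vasodilator adrenomedullin, was at 22.6 and 11.2 CPM, but 1 anti-VEGF cell held 30.3% of its UMIs there, and its log2 ratio was 0.24 in the Dkk2/Msln cells. Vegfa, the ligand that the antibody binds, was at 91.6 CPM in anti-VEGF and 80.5 CPM in control members, 1.14-fold higher (1.03 to 1.25). That difference did not carry over to the Dkk2/Msln cells. There Vegfa was at 77.2 CPM in anti-VEGF and 81.4 CPM in control cells, a ratio of 0.949 (0.855 to 1.05). Ero1l and Bnip3 were also higher in anti-VEGF than in control Ptprc-positive cells. Ero1l was at 161 CPM in the anti-VEGF and 60.2 CPM in the control library there, and Bnip3 at 295 and 104 CPM. The part of free RNA from those cells in the members' values was not tested. Without the members that held 20 or more macrophage UMIs the list median was 0.36. The relatives of Vegfa, Vegfb and Vegfd and the co-receptors Nrp1 and Nrp2 also stayed under 1.5-fold.

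In the Dkk2/Msln cells the hypoxia median was 0.23, with 17 of 20 above 0 and 4 at least 1.5-fold higher. In Car9-positive cells the median was 0.54, with 20 of 20 above 0 (against 34.6% of all genes) and 10 of 20 at least 1.5-fold higher (against 1.98%). Ero1l there was at 394 CPM in anti-VEGF and 135 CPM in control cells. The contrast between Car9-negative and Car9-positive cells is the one the rule used. As a description, Car9-negative cells had the lower level, by a median log2 ratio of -0.93 in the anti-VEGF and -0.77 in the control library. In each library 15 of 20 genes were at least 1.5-fold lower. Over all genes in this contrast, 1.25% of 9425 in the anti-VEGF and 1.37% of 8802 in the control library were as much lower. The medians over all genes were 0.107 and 0.0315. Of 16 measured glycolysis genes, 13 had a ratio above 0. The enolase Eno2 alone of them was at least 1.5-fold higher, at 32.0 CPM in anti-VEGF and 15.9 CPM in control members. The glycolysis median was 0.21, and 0.53 with the limits applied after thinning to 5000 UMIs. That alternative chose cells by their thinned counts and summed their full counts. Cells with a Car9 or Ptprc UMI before thinning could therefore enter. Gapdh was at 4724 CPM in anti-VEGF and 4739 CPM in control members.

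The promoters of 3 of the higher hypoxia genes are shown because the letters that hypoxia-inducible factors bind, ACGTG or GCGTG, occur in them. RefSeq windows of 250 bases before to 50 after the gene start were matched by symbol for 17 of the 20 measured genes (Ero1l as Ero1a), and both motifs were searched on both strands. At least 1 window held ACGTG for 13 of the 17 genes (76.5%), against 21.8% of 27025 genes in the table, and all 17 held either motif, against 46.7%. The list was drawn up from known hypoxia targets, base composition was not matched, and a match is a description and not a binding site. The windows, on GRCm38.p6 and written 5′ to 3′ on the gene's strand, are Ankrd37 (chr8:45999801-46000100), Bnip3 (chr7:138909457-138909756) and Ero1l (chr14:45318523-45318822), all on the minus strand, with motif letters in capitals. In Ankrd37 a match of each strand overlaps in CACGCGTG, and in Bnip3 in CACGTG.
Ankrd37: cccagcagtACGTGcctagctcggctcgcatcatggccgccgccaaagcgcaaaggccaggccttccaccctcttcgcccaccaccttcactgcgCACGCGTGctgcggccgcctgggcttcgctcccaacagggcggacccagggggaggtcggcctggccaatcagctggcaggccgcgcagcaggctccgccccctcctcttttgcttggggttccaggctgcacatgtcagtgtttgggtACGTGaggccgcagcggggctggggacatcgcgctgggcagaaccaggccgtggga
Bnip3: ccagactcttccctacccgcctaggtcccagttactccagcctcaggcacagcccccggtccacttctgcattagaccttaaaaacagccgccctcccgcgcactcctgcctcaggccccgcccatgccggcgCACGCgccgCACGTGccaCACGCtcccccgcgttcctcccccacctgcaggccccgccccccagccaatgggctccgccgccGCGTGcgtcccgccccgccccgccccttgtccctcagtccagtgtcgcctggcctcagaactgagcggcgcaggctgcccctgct
Ero1l: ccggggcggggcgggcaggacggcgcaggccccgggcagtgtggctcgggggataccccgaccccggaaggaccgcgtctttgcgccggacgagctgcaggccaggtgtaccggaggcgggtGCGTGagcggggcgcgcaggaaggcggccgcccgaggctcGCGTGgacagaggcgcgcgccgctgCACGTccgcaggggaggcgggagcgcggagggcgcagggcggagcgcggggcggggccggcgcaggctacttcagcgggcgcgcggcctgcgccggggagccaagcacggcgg

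Interferon-response genes were also higher in anti-VEGF members. All 20 measured genes of 21 had a ratio above 0, and 8 were at least 1.5-fold higher, with a median log2 ratio of 0.52. Ifit1, an RNA sensor, was at 20.6 CPM in anti-VEGF and 8.63 CPM in control members, Gbp2, a guanylate-binding protein, at 46.8 and 25.9 CPM, and Irf7, a transcription factor of the pathway, at 25.9 and 14.9 CPM. Cxcl9, an attractant of T cells, was at 42.1 and 14.96 CPM, but 1 cell held 54.9% of its UMIs in the anti-VEGF and 59.5% in the control library. In the Dkk2/Msln cells the median was 0.38, with 19 above 0 and 6 at least 1.5-fold higher. Car9-positive cells had a median of 0.085, with 11 of 20 above 0 (against 34.6% of all genes) and 3 at least 1.5-fold higher (against 1.98%). The list summed to 2244 CPM in anti-VEGF and 1719 CPM in control members, and to 2125 and 1710 CPM in Ptprc-positive cells. The part of free RNA from Ptprc-positive cells in the members' values was not tested. When the limits were applied to counts thinned to 5000 UMIs, which changes the cells chosen, the median was 0.15 and Irf7 stood at -0.024. The MHC class I list did not share the direction, as 13 of its 17 genes had a ratio below 0, none reached 1.5-fold, and the median was -0.23. H2-K1 was at 1264 CPM in anti-VEGF and 1617 CPM in control members.

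Proliferation genes were lower in anti-VEGF members, by amounts that varied. All 23 measured genes had a ratio below 0, between -0.11 for Pcna, a replication clamp, and -0.67 for Ube2c, with a median of -0.35, and 2 were at least 1.5-fold lower. These were Ube2c (251 CPM in anti-VEGF and 400 CPM in control members) and Ccnb2 (60.0 and 92.4 CPM), both of mitosis. Without the members that held 3 or more UMIs of the cycle genes named below, Ube2c stood at a log2 ratio of 0.38. Ube2c is itself among those genes, so the filter capped its counts. That value therefore cannot show whether its lower level holds. After thinning to 5000 UMIs, 46.8% of anti-VEGF (39.8 to 53.9) and 56.5% of control members (49.97 to 62.9) held a UMI of Mki67, Top2a, Ube2c, Cdk1, Ccnb1 or Birc5, and the intervals overlap. The unthinned shares with 3 or more such UMIs were 48.3% and 64.1%. The same direction was present in the other cells, at 42.9% of anti-VEGF and 62.2% of control Car9-positive cells and at 40.7% and 55.5% of Ptprc-positive cells after thinning. Applying the limits after thinning, which changes the cells chosen, took the list median to -0.04. Ube2c and Ccnb2 then ran the other way, at log2 ratios of 0.31 and 0.21.

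Values of collagen and matrix genes differed between all members and the Dkk2/Msln cells. Of 18 collagen genes, 16 had a ratio above 0 and 4 were at least 1.5-fold higher over all members, with a median log2 ratio of 0.39. In the Dkk2/Msln cells, 9 of 17 were above 0, 1 was at least 1.5-fold higher and the median was 0.05. Col1a1, the chain of type I collagen, was at 765 CPM in anti-VEGF and 518 CPM in control members, and at 386 and 474 CPM in the Dkk2/Msln cells. Sparc, a collagen-binding glycoprotein, was at 1064 and 681 CPM over all members and at 701 and 669 CPM in those cells. Postn, a matrix protein of activated stroma, was at 56.4 and 8.72 CPM over all members and at 0.36 and 4.08 CPM in those cells, and Lox, the collagen crosslinking oxidase, at 37.8 and 2.39 CPM over all members and at 0.48 and 1.33 CPM in them. Since Col1a1, Col1a2 and Col3a1 chose the cells, their own ratios are description. They are also among the listed collagens, so the counts and medians of that list partly rest on them and are description too. Thbs2, a thrombospondin, had nearly the same ratio in both, at 224 and 127 CPM over all members and 219 and 124 CPM in those cells. Of 16 matrix glycoprotein genes, 14 were above 0 and 7 at least 1.5-fold higher over all members (median 0.55), and 2 of 14 were at least 1.5-fold higher in those cells (median 0.18). With the limits applied after thinning to 5000 UMIs, the median was 0.12 for the collagens and 0.10 for the matrix glycoproteins. The fibroblast markers had a median of 1.02 over all members, with 5 of 7 at least 1.5-fold higher, and of 0.36 in those cells, with 2 of 7. Among 14 chemokine and cytokine genes, 6 were at least 1.5-fold higher and 0 lower over all members (median 0.50). In those cells 2 of 12 were higher and 3 lower (median -0.25). Cxcl1, a neutrophil attractant and the relative of Cxcl5, was at 872 CPM in anti-VEGF and 944 CPM in control members.

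**Figure D5:**
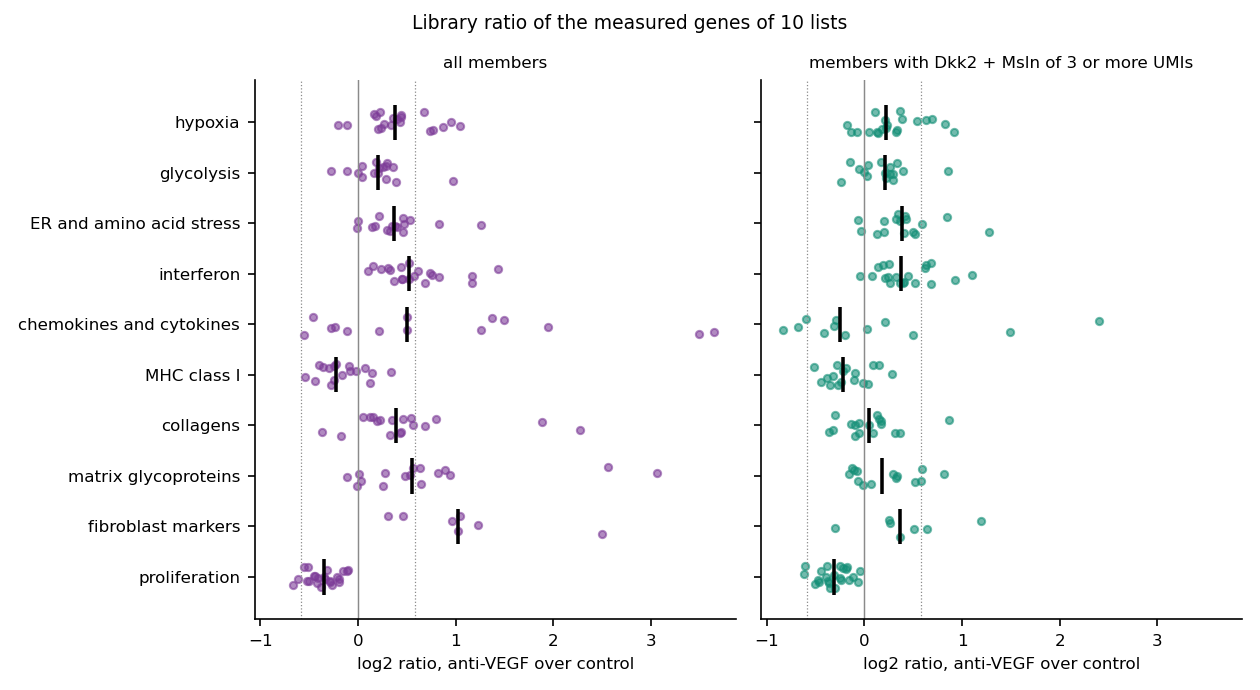
Log2 ratio of anti-VEGF over control for each measured gene of 10 lists (points), with the list median as a black bar and dotted lines at 1.5-fold. The left panel holds all members and the right panel those with 3 or more UMIs over Dkk2 and Msln. Medians of the collagen and chemokine lists lie at 0.39 and 0.50 on the left and at 0.05 and -0.25 on the right, and those of the interferon and stress lists stay above 0. The collagen list includes Col1a1, Col1a2 and Col3a1, which chose the cells.

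The endoplasmic reticulum and amino acid stress list had a median of 0.36, with 14 of 16 genes above 0 and 2 at least 1.5-fold higher. Trib3, a target of the amino acid response, was at 19.6 CPM in anti-VEGF and 7.62 CPM in control members (2.57-fold, 1.97 to 3.38), and Slc7a11, the cystine transporter, at 11.5 and 6.06 CPM. In the Dkk2/Msln cells the median was 0.39, with 3 of 16 at least 1.5-fold higher. Oxidative phosphorylation (20 genes, median -0.04), YAP targets (13 genes, -0.08) and the VEGF axis (5 genes, 0.05) lay near the median of all genes. Among growth factors, Areg, a further EGF receptor ligand, was at 37.7 CPM in anti-VEGF and 59.6 CPM in control members, and Inhba, an activin subunit, at 264 and 302 CPM. With the limits applied after thinning Areg ran the other way, at a log2 ratio of 0.17. Among YAP targets, Ctgf was at 87.4 and 49.8 CPM, opposite in direction to Ankrd1.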

How the data were processed

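The data are UMI counts per gene and cell barcode in 2 single-cell libraries, deposited by the authors as unnormalized count matrices. Cell Ranger 3.0.2 and mm10 are named in the submitters' processing notes, while the file headers give Cell Ranger 3.1.0. The libraries held 8825 anti-VEGF and 11687 control barcodes, with 213948867 and 233687412 UMIs.

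Cells were selected by the counts described in the report, and their UMIs were summed within each library and divided by the summed total (CPM). Poisson, binomial and conditional binomial intervals are exact, at 95%, and cover counting error only. With 1 library per group no test was run and no p-value is given. Ratios are log2 of anti-VEGF over control after adding 1 CPM, for genes with 100 or more UMIs in both libraries together, and a gene counts as higher or lower from 1.5-fold. The count of called genes is a description of 2 libraries. The ratio step was tested on simulated data. No doublet caller was run; the 0 Ptprc limit, a limit of 20 macrophage UMIs and the removal of the deepest 5% of members stood in for it.

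Genes named outside the lists are the 10 highest and 10 lowest ratios among genes with 50 CPM in 1 library and a UMI in 10% of its members, and the 15 highest ratios over Ptprc-positive cells among genes with 100 CPM in members. Predicted, mitochondrial, ribosomal, globin, immunoglobulin, T-cell receptor, Y-linked and rule genes were left out of both. Single genes named by their share of other results were chosen after their values were seen, as were the split by Dkk2, Msln, Dcn, Lum and Dpt and the genes around Cdkn2a. The members and the lists were chosen with earlier results of these data known. Software was Python 3.11.15, numpy 2.4.6, scipy 1.17.1, pandas 2.3.3, matplotlib 3.10.9, R 4.3.3 and edgeR 4.0.16, the last used only for TMM scaling.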

Additional observations from a re-analysis of the deposited data

Results flagged for a closer look

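For 4 genes the library difference ran in opposite directions in Car9-negative and Car9-positive collagen cells. The difference between the directions was not tested, since each group is 1 library. Cxcl5 had a log2 ratio of anti-VEGF over control of 3.49 in Car9-negative cells and -0.81 in Car9-positive cells. Its Car9-negative value also rested on few cells, as 10% of them held 97.2% of its UMIs in the anti-VEGF and 100% in the control library. Among Car9-negative cells with 3 or more UMIs over Dkk2 and Msln the ratio was 2.41. That value rested on few cells too, as 18.3% of such anti-VEGF and 8.96% of such control cells held a UMI of Cxcl5. For Ccl2 the values were 1.26 in Car9-negative and -1.04 in Car9-positive cells. The sign of Ccl2 rested on few cells, since it was -0.83 in the Car9-negative cells with 3 or more UMIs over Dkk2 and Msln. It was -0.76 without the 9 anti-VEGF and 3 control Dcn-rich cells that held at most 2 UMIs of Dkk2 and Msln. Of Ccl2 UMIs, 92.9% were held by 10% of anti-VEGF cells. Lum, the lumican gene, stood at 1.22 in Car9-negative and -2.03 in Car9-positive cells. Few cells carried Lum too, as 10% of Car9-negative cells held 99.5% of its UMIs in each library. Its ratio was 1.19 in Car9-negative cells with 3 or more UMIs over Dkk2 and Msln. Ifit1 stood at 1.17 in Car9-negative and -0.79 in Car9-positive cells.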

How the results depend on the processing

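No paired analysis was possible because each group is 1 library and the labels give no replicate numbers, and for the same reason no replicate could be left out. The results were recomputed under 18 alternatives, of which those that split members by Dkk2 and Msln were chosen after seeing the data. Where a value moved, the cause was not tested. Of 50 genes past 1.5-fold that were followed, 15 stayed past it in the same direction under every alternative. Another 11 turned direction under at least 1. Col12a1 and Thbs1, not named above, are among the 50, and Col12a1 is among the 15. A turn is counted by sign alone, with no minimum of UMIs.

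The count of 245 genes higher was 98 with members thinned to 5000 UMIs, 161 with 5 CPM added, 442 with a minimum of 30 UMIs and 723 with none. The count of 113 genes lower was 179 with the limits applied after thinning, 172 with cells weighted equally, 45 with 5 CPM added, 204 with a minimum of 30 UMIs and 293 with none. The hypoxia median of 0.37 was 0.65 with members thinned, 0.65 without cycling members and 0.16 in members with 3 or more mesothelial or keratin UMIs. The difference in share of cells, anti-VEGF minus control, was -0.196 percentage points, and 0.352 with the limits applied after thinning (187 anti-VEGF and 179 control cells). That alternative chose cells by thinned counts and used their full counts, so cells with Ptprc or Car9 UMIs could enter.

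The macrophage sum as a percent of Ptprc-positive cells was 2.20 in anti-VEGF and 1.54 in control members. It was 2.08 and 1.44 at 5% mitochondrial UMIs, 2.35 and 1.61 at 5 collagen UMIs, 0.840 and 1.02 without cells of 20 or more macrophage UMIs, and 6.47 and 8.44 with the limits applied after thinning. In anti-VEGF members it was 2.31 at 30 collagen UMIs and 2.40 without the deepest 5%, and in control members 2.43 when 1 Ptprc UMI was allowed.

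With the limits applied after thinning, the log2 ratio was 0.31 for Ube2c, -0.024 for Irf7, 0.17 for Areg and 0.21 for Ccnb2. Without cycling members it was 0.38 for Ube2c, whose own counts are part of that filter, and -0.85 for Krt8. In members with mesothelial or keratin UMIs it was -0.0082 for Ccl2, -0.024 for Col5a3, a collagen chain gene, and -0.11 for Cxcl9. In members with 3 or more UMIs over Dkk2 and Msln it was -0.83 for Ccl2, -0.10 for Col5a3, -1.90 for Postn and -0.65 for Lox. Without the Dcn-rich members lacking Dkk2 and Msln it was -0.017 for Ccl7, -0.76 for Ccl2, -0.060 for Col5a3, -1.88 for Postn and -0.64 for Lox.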
